A study of Nicotiana tabacum with 6 samples.

Results

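The genes described here are those that could be compared at a reliable level between 35S:A9 seedlings and their nontransgenic (NT) siblings, at 3 weeks of age. They were taken from the deposited table of A9up genes, which lists the genes that were higher with the sunflower heat stress factor HaHSFA9 (A9) both in seedlings and in imbibed seeds. For each gene the seedling row was read, the transcript level of both libraries was compared, and a gene was kept where the higher of both values was 5 FPKM or more (FPKM, fragment counts corrected for transcript length and library depth). This left 700 of 4753 genes, after 1 block of the table that pairs different gene identifiers had been skipped. The 2 genes just inside the minimum stood at 5 and 5.01 FPKM in 35S:A9 seedlings, and the 2 just outside it both stood at 4.99 FPKM.

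The study asked how far the gene regulation by A9 that underlies seed longevity resembles that behind its effects on seedling photomorphogenesis. Both seedling libraries came from Nicotiana tabacum var. Xanthi raised in cycles of 16 h light and 8 h dark, with white light of 100 µmol m-2 s-1. The 35S:A9 plants carried the sunflower A9 gene behind the constitutive 35S promoter, which is active in vegetative organs. The NT plants were siblings that had lost the transgene by segregation. The level of the sunflower transgene is not among the tobacco genes of the table and was not checked here. The lines descended from homozygous single insertions that lie at different places in the genome, and each library was 1 equimolecular mix of 4 RNA samples that was sequenced 2 times. There was therefore 1 library on each side and 1 value per gene and library, and no difference described below has a replicate check or a p-value. Every gene in the table had to be higher in both A9 experiments to be listed, so the direction of a difference comes from that selection and is not a result. Genes that did not pass it, and genes that were lower, are not known from this table.

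The deposited FPKM kept the steps of single fragments in short transcripts. These steps gave depths of about 13300000 assigned fragments for 35S:A9 and 13100000 for NT seedlings, and 94.6 and 89.8% of the low values used came out whole within 0.1 of a fragment. An FPKM of 1 for a transcript of 1 kb then corresponds to 12.7 and 12.6 fragments. The well-measured genes had a median of 225.5 fragments in 35S:A9 and of 83.5 in NT seedlings. From the fragments each log2 fold (35S:A9 over NT FPKM) was given an exact binomial (Clopper-Pearson) 95% interval, called the counting interval. It covers counting error between 2 libraries only, while differences among plants, lines and pools are outside it. For 680 of the 695 genes with a fold (97.8%), the counting interval lay above 0. Each listed gene had to be higher in these same libraries, so this share was largely set by the selection. Tobacco is an allotetraploid, and reads can be shared between copies of a gene.

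Heat stress factors bind heat shock elements in promoters and switch on chaperone genes. A9 is a member of this family that is normally active in maturing seeds, where small heat shock proteins (sHSPs) accumulate without any heat stress. sHSPs hold unfolding proteins in a soluble state without using ATP, and vegetative tissue at ordinary temperature usually makes little of them.

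The differences covered a wide range. Of the 700 genes, 5 were listed at 0 in NT seedlings, which leaves 695 with a fold. Their median log2 fold was 1.15 (order-statistic 95% interval 1.09 to 1.21), a 2.22-fold difference, and the quartiles lay at 0.83 and 1.76. A log2 fold of 2 or more, which is 4-fold and is used below to mark large differences, was found for 133 genes (19.1%). A log2 fold of 3 or more was found for 69 genes (9.93%) and one of 5 or more for 20 genes. The lowest value, 0.59, lies at the selection limit of the table. Where a pair of FPKM values is given below, NT comes first and 35S:A9 second, and an interval in brackets after a log2 fold is its counting interval. In bulk RNA from seedlings, more cells of one type and more RNA per cell cannot be told apart.

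**Figure D1:**
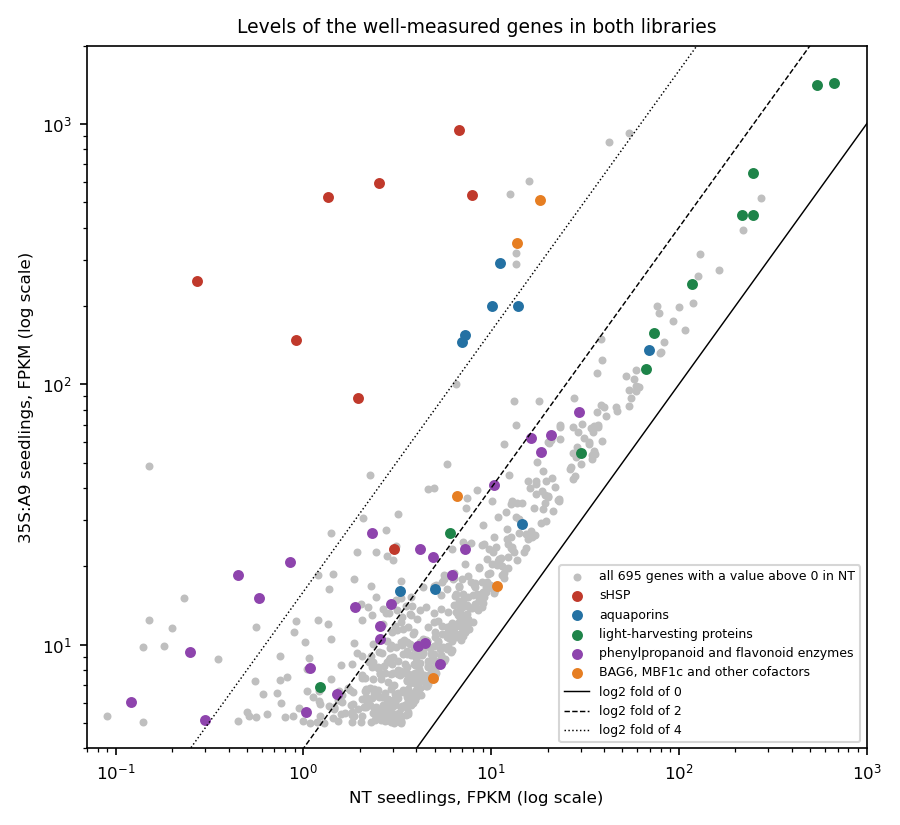
FPKM of the 695 genes with a value above 0 in NT seedlings (x axis, log scale) against 35S:A9 seedlings (y axis, log scale), with 1 point per gene, 1 library per axis and lines at log2 folds of 0, 2 and 4. The sHSP genes lie well above the line for a log2 fold of 2, at NT values between 0.27 and 7.93 FPKM, and most light-harvesting protein genes lie at the top right with log2 folds near 1.

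How often a large difference occurs depends on the NT level, because a gene under 5 FPKM in NT could be kept only through a higher value in 35S:A9. Of the 380 genes with a fold that stood under 5 FPKM in NT seedlings, 107 (28.2%) reached a log2 fold of 2, against 26 of 315 (8.25%) at 5 FPKM or more. Counts of large differences in the lists below are therefore descriptions of the genes that were kept, and they are read beside these shares. A total of 17 genes stood under 20 FPKM in NT and at 100 FPKM or more in 35S:A9 seedlings. They were 6 sHSP genes, 2 genes of the cochaperone BAG6, 2 of RuBisCO activase, 2 of cytosolic ascorbate peroxidase and 5 gene models of the aquaporin PIP2-1. No gene outside these families met both limits. At the other end, 305 genes stood between 5 and 10 FPKM in 35S:A9 seedlings, and 40 of the 700 genes stood under 1 FPKM in NT seedlings, where few fragments make the intervals wide.

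**Figure D2:**
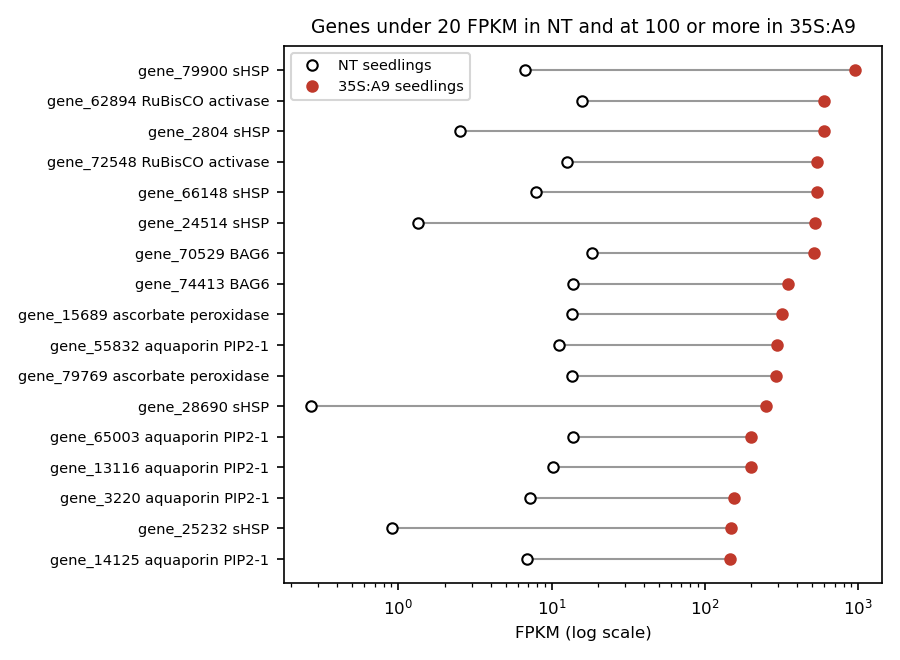
FPKM (log scale) in NT (open circles) and 35S:A9 seedlings (filled circles) of the 17 genes under 20 FPKM in NT and at 100 or more in 35S:A9 seedlings, with 1 library per circle and a line joining both values of a gene. The lowest NT value is that of the class IV sHSP gene_28690 at 0.27 FPKM, and the highest 35S:A9 value is that of the class I sHSP gene_79900 at 948 FPKM.

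The sHSP genes had the highest median difference of the lists with 4 or more genes. All 9 well-measured sHSP genes together went from a summed level of 24.7 FPKM in NT to 3131 FPKM in 35S:A9 seedlings. The median log2 fold of the 8 with a fold was 7.24, against 1.15 for all well-measured genes. All 8 reached a log2 fold of 2, against 19.1% of all. Of the 9 genes, 7 stood under 5 FPKM in NT. The cytosolic class I genes held most of this level. The 3 genes whose seed rows describe them as 18.2 kDa class I sHSP summed to 17.2 FPKM in NT and 2079 FPKM in 35S:A9 seedlings. The most abundant of them, gene_79900, stood at 6.73 FPKM in NT and 948 FPKM in 35S:A9 seedlings, or 7.14 as log2 fold (counting interval 6.75 to 7.52). The second, gene_2804, stood at 2.54 and 595 FPKM, a log2 fold of 7.87 (7.35 to 8.47). The third, gene_66148, had the highest NT level of all sHSP genes, at 7.93 and 536 FPKM, and the smallest log2 fold of the 3, 6.08 (5.73 to 6.41). A further class I gene, gene_26623, described as 17.6 kDa, was lower in both libraries, at 1.95 and 88.4 FPKM.

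Other classes of sHSP, in the cytosol or in other places of the cell, were also represented. The cytosolic class II gene_24514 (18.8 kDa) stood at 1.35 FPKM in NT and 524 FPKM in 35S:A9 seedlings, or 8.60 (7.80 to 9.49) as log2 fold. The largest fold of all well-measured genes belonged to gene_28690, described as a 22.7 kDa class IV protein. It stood at 0.27 FPKM in NT, which rests on 4 fragments, and at 248 FPKM in 35S:A9 seedlings, or 9.84 (8.48 to 11.71) as log2 fold. A second gene with the same class IV description, gene_67564, was far less different, at 3.05 and 23.3 FPKM with a log2 fold of 2.93 (2.55 to 3.36). The intervals of these class IV genes did not overlap. Mitochondrial sHSP was represented by gene_25232 (26.5 kDa), at 0.91 FPKM in NT and 148 FPKM in 35S:A9 seedlings, and by gene_81743, which was listed at 0 in NT and stood at 20.4 FPKM in 35S:A9 seedlings.

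Among the cochaperones and cofactors of the heat response, BAG6 stood out. BAG proteins bind HSP70 and modulate its activity, and BAG6 of Arabidopsis also binds calmodulin. Its first gene, gene_70529, stood at 18.3 FPKM in NT and 512 FPKM in 35S:A9 seedlings, or 4.81 (4.71 to 4.89) as log2 fold, which rests on 29503 fragments in 35S:A9, the most of any well-measured gene. Its second gene, gene_74413, stood at 13.7 and 348 FPKM, a log2 fold of 4.67 (4.57 to 4.77). The intervals of both copies overlapped. Multiprotein-bridging factor 1c (MBF1c, gene_84717), a transcriptional cofactor of heat tolerance in Arabidopsis, stood at 6.57 and 37.3 FPKM, a log2 fold of 2.51 (2.12 to 2.88). The endogenous heat stress factor B-3 (gene_84967) was close to the selection limit, at 10.8 and 16.8 FPKM with a log2 fold of 0.64 (0.32 to 0.95).

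In the list of chaperones that use ATP (HSP70, HSP90, HSP101, ClpB and chaperonins), 4 genes were well measured. None of the 3 with a fold reached a log2 fold of 2, against 19.1% of all, and the other was listed at 0 in NT. The mitochondrial chaperonin CPN60-2 (gene_39269), which folds imported proteins, stood at 28.1 FPKM in NT and 44.4 FPKM in 35S:A9 seedlings. The mitochondrial disaggregase ClpB3 (gene_16507) stood at 3.44 and 10.4 FPKM, a log2 fold of 1.60 (1.28 to 1.92). The transcript of gene_6664, described as luminal-binding protein in 1 row of the table and otherwise in the other, was the one listed at 0 in NT and stood at 7.28 FPKM in 35S:A9 seedlings, which rests on 51 fragments. The 4 DnaJ cochaperone genes had log2 folds between 0.70 and 1.51. The table holds only genes that were higher, so other members of these families are not described by it.

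**Figure D3:**
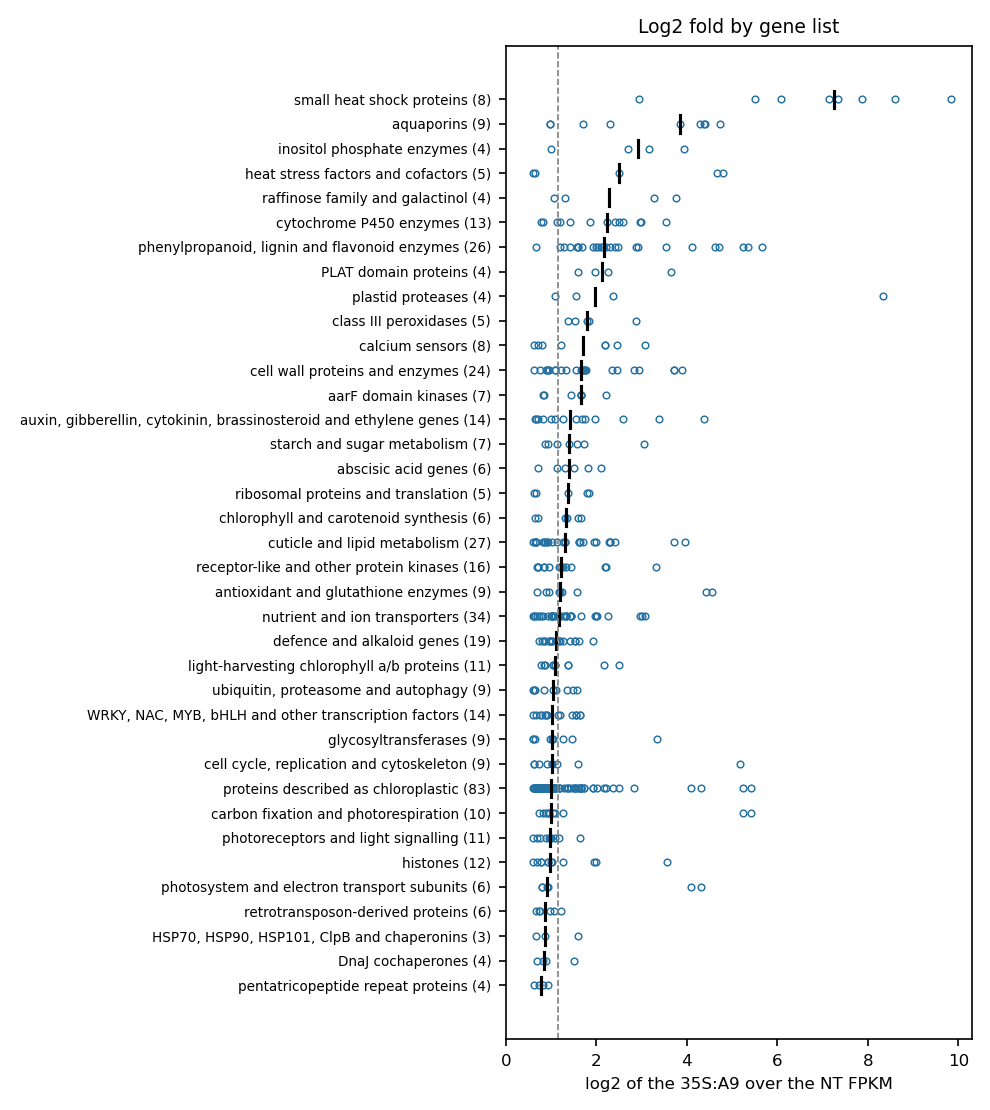
Log2 of the 35S:A9 over the NT FPKM for each well-measured gene (open circles), grouped by list for lists of 4 or more genes, with the number of genes with a fold in brackets, the median of each list as a black bar and the median of all 695 genes, 1.15, as a dashed line. The sHSP list has the highest median, at 7.24, and the lists of aquaporins and inositol phosphate enzymes follow at 3.85 and 2.93.

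The photosynthetic genes included the highest levels, and both libraries of the labelled seedlings held them. The light-harvesting chlorophyll a/b proteins carry the antenna pigments of the photosystems. All 11 listed in the whole table were well measured, and they summed to 2225 FPKM in NT and 4990 FPKM in 35S:A9 seedlings. The most abundant gene in 35S:A9 seedlings, gene_37137, stood at 671 and 1432 FPKM, a log2 fold of 1.09 (1.02 to 1.13). The next, gene_16917, stood at 546 and 1414 FPKM, a log2 fold of 1.37 (1.33 to 1.40). The median log2 fold of the 11 genes, 1.09, was near that of all well-measured genes, and 2 of them (18.2%) reached a log2 fold of 2, near the 19.1% of all. Those 2 were the least abundant of the 11 in both libraries, and the larger fold was that of CP24 (gene_6987), a minor antenna protein of photosystem II, at 1.23 and 6.91 FPKM. In seeds, 10 of the 11 stood under 1 FPKM in both libraries. Of seed markers (storage, oil-body and LEA proteins), no gene was well measured and the 2 in the whole table reached at most 1.24 FPKM in seedlings and 0.18 FPKM in seeds, so this list gives no check of the tissue.

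Within the photosystems a pair of genes stood apart. The photosystem II 10 kDa polypeptide, a subunit of the oxygen-evolving side, was represented by gene_70553 at 54.1 FPKM in NT and 927 FPKM in 35S:A9 seedlings. Its second gene, gene_38985, stood at 42.5 and 849 FPKM. Their log2 folds of 4.10 (3.95 to 4.23) and 4.32 (4.15 to 4.46) had overlapping intervals. The photosystem I subunits D (gene_59269) and H (gene_60359) had log2 folds of 0.92 and 0.80, and PGR5 (gene_4730), which takes part in cyclic electron flow, one of 0.91. All 3 intervals lay wholly below those of the 10 kDa genes.

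In carbon fixation the 2 RuBisCO activase genes were likewise apart from the other enzymes. RuBisCO activase frees the active sites of RuBisCO from tight-binding sugar phosphates and is itself sensitive to heat. The activase genes summed with the other 8 genes of the list to 976.7 FPKM in NT and 2933 FPKM in 35S:A9 seedlings. The first, gene_62894, stood at 15.8 and 601 FPKM, a log2 fold of 5.25 (5.08 to 5.41). The second, gene_72548, stood at 12.5 and 537 FPKM, a log2 fold of 5.42 (5.25 to 5.60). The log2 folds of the other 8 genes lay between 0.74 and 1.26. Plastidic aldolase, an enzyme of the Calvin cycle, was present as 3 genes, and the most abundant of them, gene_57427, stood at 274 and 519.7 FPKM. Of the photorespiratory enzymes, glycerate dehydrogenase HPR (gene_55093) stood at 221 and 391 FPKM and serine-glyoxylate aminotransferase (gene_10539) at 58.9 and 113 FPKM. These enzymes recycle the product of the oxygenase reaction of RuBisCO.

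Genes listed for plastid maintenance were less abundant. The FtsH protease gene_22233 stood at 0.15 FPKM in NT and 48.4 FPKM in 35S:A9 seedlings, or 8.33 (7.17 to 9.74) as log2 fold, the third largest of all well-measured genes. Its NT value rests on 6 fragments, and its description names no organelle. FtsH proteases are membrane-bound and several of them clear damaged photosystem proteins in thylakoids. The probable metallopeptidase EGY3 was present as gene_4522, at 13.5 and 69.7 FPKM, and gene_15133, at 20.8 and 61.2 FPKM. The aarF domain kinases gave 7 genes with a median log2 fold of 1.65. Of pigment synthesis, the magnesium chelatase subunit ChlH (gene_84978), which commits porphyrin to chlorophyll, stood at 38.8 and 123 FPKM, a log2 fold of 1.67 (1.58 to 1.75). Phytoene synthase, the entry enzyme of carotenoids, stood at 20.01 and 60.1 FPKM (gene_119) and at 13.7 and 35.0 FPKM (gene_65447). None of the 6 pigment synthesis genes reached a log2 fold of 2. All 6 stood at 5 FPKM or more in NT, where 8.25% of all genes reached it. Of all well-measured genes, 84 were described as chloroplastic. The median log2 fold of the 83 with a fold was 1.00, and 10 (12%) reached a log2 fold of 2, against 19.1% of all. Of the 84, 68 stood at 5 FPKM or more in NT, where 7 of the 68 reached it, against 8.25% of all genes. Under 5 FPKM in NT, 3 of the 15 with a fold reached it, against 28.2% of all genes. The lower share of the whole list was therefore not seen at 5 FPKM or more in NT.

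Photoreceptors lay close together. The 11 genes of photoreceptors and light signalling had a median log2 fold of 0.99, and none reached 2, against 19.1% of all. Of the 11, 8 stood at 5 FPKM or more in NT, where the share of all genes was 8.25%. The blue-light receptor phototropin-2 (gene_28646), which steers chloroplast movement, stood at 34.0 and 67.8 FPKM, a log2 fold of 1.00 (0.91 to 1.08). The 4 gene models described as phytochrome A1, the far-red receptor, had log2 folds between 0.69 and 1.08. Their lengths ran from 1144 to 3524 bases, so some of them may be parts of a gene. The largest fold of the list was that of the zinc finger protein CONSTANS-LIKE 16 (gene_79713), at 4.04 and 12.6 FPKM.

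Enzymes that remove reactive oxygen were split. Cytosolic ascorbate peroxidase 2, which reduces hydrogen peroxide with ascorbate, was present as gene_15689 at 13.5 and 318 FPKM and as gene_79769 at 13.5 and 289.8 FPKM. Their log2 folds were 4.56 and 4.42, with overlapping intervals (4.36 to 4.76 and 4.21 to 4.62). Dehydroascorbate reductase (gene_67934), which regenerates ascorbate, stood at 20.1 and 36.9 FPKM with a log2 fold of 0.88 (0.64 to 1.10). The other 6 genes of the list, among them 3 described as glutathione S-transferases, had log2 folds between 0.69 and 1.58. The 5 class III peroxidase genes, secreted enzymes of the cell wall, had a median log2 fold of 1.79, and the largest belonged to peroxidase 60 (gene_18368), at 2.30 and 16.8 FPKM.

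Of 9 aquaporin genes, 6 (66.7%) reached a log2 fold of 2, against 19.1% of all. Of these 6, 5 were models of PIP2-1, all above 5 FPKM in NT. Aquaporins are membrane channels for water, and PIP2 proteins sit in the plasma membrane. The 5 gene models described as PIP2-1 summed to 49.3 FPKM in NT and 991.4 FPKM in 35S:A9 seedlings, with log2 folds between 3.85 and 4.72. The most abundant, gene_55832, stood at 11.1 and 293 FPKM, a log2 fold of 4.72 (4.35 to 5.08). They are 409 to 1201 bases long and may be pieces or near copies of fewer genes, so their reads may be shared. The other was gene_63504, described as PIP1-2 in its seed row, at 3.26 and 16.1 FPKM, a log2 fold of 2.30 (1.86 to 2.74). The 2 genes of PIP2-4, in contrast, had log2 folds of 0.97 (gene_35925, at 69.2 and 136 FPKM) and 0.99 (gene_23289). A tonoplast channel, TIP-type RB7-5A (gene_80527), stood at 5.05 and 16.4 FPKM. In both seed libraries all 5 PIP2-1 models stood under 1 FPKM.

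Phenylpropanoid, lignin and flavonoid enzymes were mostly low in NT seedlings. They turn phenylalanine into the building blocks of lignin and of flavonoid pigments. Of 26 well-measured genes, 16 (61.5%) reached a log2 fold of 2, against 19.1% of all, and the median log2 fold was 2.18. All 16 were among the 18 genes under 5 FPKM in NT, which were kept only through their 35S:A9 level, and none of the 8 genes at 5 FPKM or more in NT reached it. The entry enzyme, phenylalanine ammonia-lyase, was present as 5 genes with log2 folds between 1.57 and 2.04. The most abundant of these, gene_65313, stood at 20.9 and 63.6 FPKM. A later enzyme, 4-coumarate:CoA ligase, activates the acids for both branches. It was present as gene_47701 at 0.12 and 6.05 FPKM, a log2 fold of 5.66 (4.14 to 8.01) that rests on 3 fragments in NT, and as gene_69898 at 0.25 and 9.38 FPKM, a log2 fold of 5.23 (4.16 to 6.55). A shorter ligase model, gene_81659, had a log2 fold of only 0.66 (0.15 to 1.16).

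In the flavonoid branch the levels in NT seedlings were low. The 4 chalcone synthase genes, which make the first flavonoid skeleton, summed to 3.97 FPKM in NT and 47.9 FPKM in 35S:A9 seedlings. The most abundant, gene_77491, stood at 0.85 and 20.8 FPKM, a log2 fold of 4.61 (3.85 to 5.44). A second, gene_5201, had a log2 fold of 4.71 (3.79 to 5.77). Chalcone isomerase, which closes the ring, stood at 0.45 and 18.5 FPKM in gene_25901 and at 1.89 and 13.9 FPKM in gene_71101. Flavanone 3-hydroxylase (gene_819) stood at 2.55 and 11.8 FPKM. Flavonol synthase was present as gene_29551 at 4.92 and 21.8 FPKM and as gene_8049 at 0.3 and 5.16 FPKM. Each of these flavonoid genes had a log2 fold above 2.

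The lignin branch was more uneven. The p-coumarate 3-hydroxylase CYP98A33 (gene_35235), which hydroxylates the phenolic ring, stood at 2.32 and 26.8 FPKM, a log2 fold of 3.53 (3.12 to 3.93). A second gene of that enzyme, gene_6382, stood at 4.42 and 10.17 FPKM, and its counting interval of 0.88 to 1.52 lay below that of the first. Hydroxycinnamoyltransferase (gene_27417), which supplies its substrate, stood at 1.08 and 8.16 FPKM. The later enzymes cinnamoyl-CoA reductase (gene_27987) and cinnamyl alcohol dehydrogenase (gene_10734) had log2 folds of 1.59 and 1.41.

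**Figure D4:**
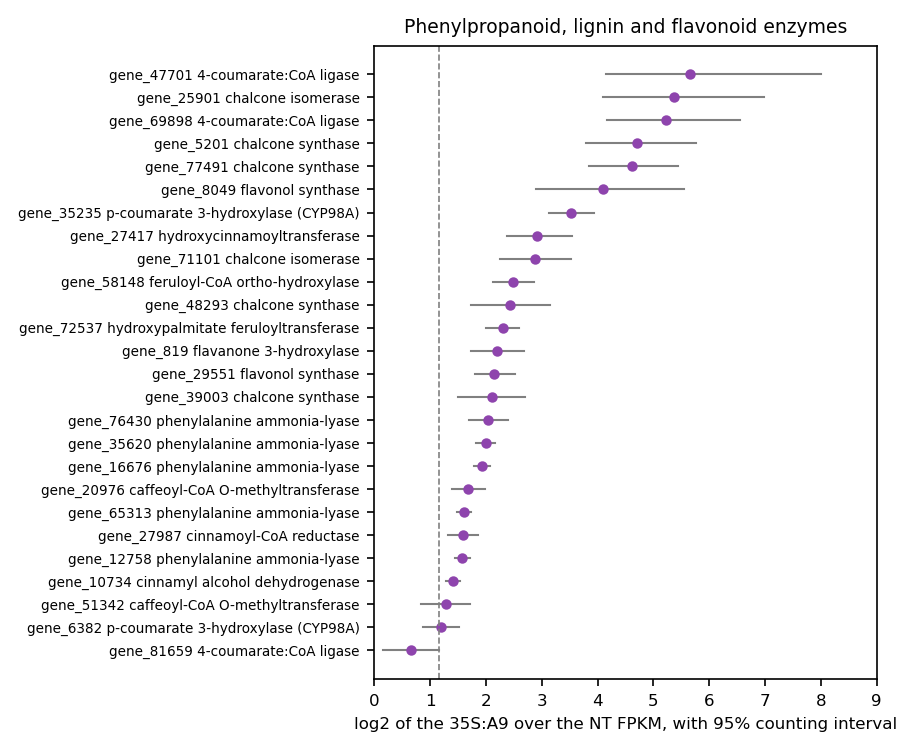
Log2 of the 35S:A9 over the NT FPKM (points) with 95% counting intervals (bars) for the 26 phenylpropanoid, lignin and flavonoid enzyme genes, with the median of all well-measured genes, 1.15, as a dashed line. Only gene_81659 has a point below the dashed line, at 0.66, and the 3 genes with the highest points are the 4-coumarate:CoA ligases gene_47701 and gene_69898 and the chalcone isomerase gene_25901, with wide intervals from few fragments in NT.

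Other secondary enzymes followed. Of the 13 cytochrome P450 genes, 7 (53.8%) reached a log2 fold of 2, against 19.1% of all, and 12 of the 13 stood under 5 FPKM in NT. CYP98A33 was the most abundant of them, and the list also holds 4 genes of the premnaspirodiene oxygenase type, which in other Solanaceae oxidises sesquiterpene phytoalexins, with log2 folds between 1.86 and 2.59. The UDP-glycosyltransferases of the 73C type, which attach sugars to small molecules, were abundant and little different. Their 6 genes summed to 253.3 FPKM in NT and 494.8 FPKM in 35S:A9 seedlings, with log2 folds between 0.59 and 1.25.

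Sugar and inositol enzymes included a few large differences. Inositol-3-phosphate synthase makes the inositol that feeds phytate, galactinol and membrane lipids. Its gene gene_26935 stood at 6.48 FPKM in NT and 99.9 FPKM in 35S:A9 seedlings, or 3.95 (3.72 to 4.18) as log2 fold. The other, gene_70977, stood at 13.3 and 86.4 FPKM, a log2 fold of 2.70 (2.53 to 2.88). Their intervals did not overlap, and neither reached 1 FPKM in either seed library. The galactinol-sucrose galactosyltransferases gene_46029 and gene_46027, which make raffinose, stood in NT at 1.86 and 0.91 FPKM and in 35S:A9 seedlings at 17.9 and 12.3 FPKM. Alpha-galactosidase, which breaks raffinose sugars down, had log2 folds of 1.07 (gene_19041) and 1.30 (gene_66200). Sucrose synthase, which splits sucrose for wall and starch synthesis, was present as gene_68759 at 23.2 and 68.5 FPKM and gene_81189 at 23.2 and 61.4 FPKM.

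Genes of the cell surface were numerous at moderate levels. The cell wall list held 24 genes with a median log2 fold of 1.67, and 7 (29.2%) reached a log2 fold of 2, 6 of them from under 5 FPKM in NT. The largest fold was that of a cellulose synthase-like protein B3 (gene_23090), at 2.07 and 30.6 FPKM, a log2 fold of 3.89 (3.51 to 4.30). The mannan-cutting endo-1,4-beta-mannosidase 7 stood at 1.43 and 18.8 FPKM in gene_31414 and at 3.00 and 21.2 FPKM in gene_39794. Extensins and arabinogalactan proteins, structural glycoproteins of the wall, gave 7 genes with log2 folds between 1.09 and 3.72. The most abundant wall gene, arabinogalactan peptide 12 (gene_22615), stood at 36.6 and 78.1 FPKM.

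Cuticle and lipid genes gave 27 members with a median log2 fold of 1.31, 6 of them (22.2%) at 2 or more, near the 19.1% of all. Very-long-chain enoyl-CoA reductase (gene_30841), which completes each round of wax fatty acid elongation, stood at 1.19 and 18.5 FPKM, a log2 fold of 3.96 (3.22 to 4.77). The condensing enzymes of the same cycle, 3-ketoacyl-CoA synthases, gave 7 genes, all with log2 folds below 2, between 0.66 and 1.95. ECERIFERUM proteins, which take part in wax synthesis, gave 5 genes, and the one with a log2 fold above 2 was ECERIFERUM 26 (gene_20731), at 7.42 and 36.5 FPKM. Of 4 PLAT domain proteins, short proteins with a lipoxygenase homology domain, the most abundant (gene_84014) stood at 38.4 and 149.8 FPKM.

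Among 34 nutrient and ion transporters, 5 (14.7%) reached a log2 fold of 2, against 19.1% of all. Ferric reduction oxidase 6 (gene_16132), a family member of the enzymes that reduce iron for uptake, stood at 5.84 and 49.2 FPKM, a log2 fold of 3.08 (2.86 to 3.30). The nitrate transporter 1.4-like gene_82025 stood at 4.95 and 40.1 FPKM, a log2 fold of 3.02 (2.74 to 3.29). Its counterpart with the same description, gene_10580, was higher in NT and less different, at 12.7 and 34.7 FPKM, with a log2 fold of 1.45 (1.26 to 1.63).

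Hormone and signalling genes stood at low to moderate levels. The list of auxin, gibberellin, cytokinin, brassinosteroid and ethylene genes, which also holds a phytosulfokine precursor, had 14 genes. Of these, 3 (21.4%) reached a log2 fold of 2, near the 19.1% of all. A GAST1-like protein (gene_6180), of a family of short gibberellin-responsive peptides, stood at 0.56 and 11.7 FPKM, a log2 fold of 4.38 (2.96 to 6.28). A phytosulfokine precursor (gene_37804), the source of a growth-promoting peptide, stood at 1.19 and 12.4 FPKM. The 6 abscisic acid genes had log2 folds between 0.71 and 2.10, among them 2 genes of the kinase SRK2E, which acts in stomatal closure, at 10.1 and 35.8 FPKM (gene_53041) and at 10.9 and 31.0 FPKM (gene_16660). The list of calcium sensors, which also holds calmodulin-binding proteins, had 8 genes. Of these, 4 (50%) reached a log2 fold of 2, against 19.1% of all, and 3 of the 4 stood under 5 FPKM in NT. The largest fold was that of an IQ-DOMAIN 1 protein (gene_22527) at 0.64 and 5.43 FPKM. A further 2 of the 4 were described as calmodulin-binding heat-shock protein, at 1.85 and 10.2 FPKM (gene_16882) and at 2.65 and 12.04 FPKM (gene_75293). The other was a calcium-sensing receptor (gene_13475), at 7.34 and 33.6 FPKM. Of 16 protein kinases, 3 (18.8%) reached a log2 fold of 2, near the share over all genes.

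Regulators and defence genes held no log2 fold of 2 or more, against 19.1% of all well-measured genes. At 5 FPKM or more in NT that share was 8.25%, so a count of 0 in a short list says little. The median of 14 transcription factor genes, 8 of them at 5 FPKM or more in NT, was 1.03. The most abundant was the bZIP factor BZI-2 (gene_59863), at 30.5 and 70.3 FPKM. Of 19 defence and alkaloid genes, 12 stood at 5 FPKM or more in NT, and the median of the 19 was 1.11. Proteinase inhibitor II, a wound-related inhibitor of insect digestive enzymes, gave 3 genes with log2 folds between 0.80 and 1.12, and trypsin inhibitor 1 (gene_19906) stood at 80.7 and 133 FPKM. Putrescine N-methyltransferase, the first enzyme committed to nicotine, gave 2 genes with log2 folds of 1.11 and 1.21. None of the 9 ubiquitin, proteasome and autophagy genes reached 2, against 19.1% of all.

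Nuclear housekeeping genes were mixed. The 12 histone genes had a median log2 fold of 0.97, and 1 of them (8.33%) reached 2, against 19.1% of all. It was histone H2B.6 (gene_6783), at 1.92 and 22.7 FPKM, a log2 fold of 3.56 (2.81 to 4.38). Histone H1, which binds linker DNA, was the most abundant, at 60.5 and 97.5 FPKM (gene_68331). In the cell cycle list an A-type cyclin (gene_37368) rested on 1 fragment in NT, at 0.14 and 5.06 FPKM, and its log2 fold of 5.18 had an interval of 2.58 to 10.49. The same holds for a subunit of RNA polymerase II (gene_40221), at 0.14 and 9.81 FPKM with a log2 fold of 6.13 (3.74 to 11.59). The other 8 cell cycle genes had log2 folds between 0.62 and 1.60.

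The same genes can be set beside the seeds, where the DS10 promoter drives A9 during seed maturation. The seed libraries, DS10:A9 and their own NT siblings at 1 day after imbibition, were sequenced separately, and FPKM are scaled within each library. Of the 700 genes, 325 (46.4%) stood under 1 FPKM in both seed libraries, and 178 reached 5 FPKM there. Among the 175 genes at 5 FPKM or more in both tissues and with both folds, 45 (25.7%) reached a log2 fold of 2 in seedlings and 14 (8.00%) in seeds. The medians were 1.24 and 0.89. The seedling counting interval lay wholly above the seed interval for 54 genes (30.9%) and wholly below it for 4 (2.29%). According to the study's methods the seeds were imbibed in the dark, while the seedlings grew in cycles of light and dark. The sample records, however, give the same cycles of 16 h light and 8 h dark for seeds and seedlings. Another promoter, organ and age, and possibly another light regime, separate these comparisons, and their part cannot be told apart.

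All 8 sHSP genes with folds in both tissues were among those 54. Of the 8, 6 stood under 5 FPKM in NT seedlings, against 91 of the 175. Such genes entered the comparison only through their 35S:A9 level, which favours a larger seedling fold. In NT seeds the 9 sHSP genes already summed to 912 FPKM, against 24.7 FPKM in NT seedlings, and in A9 plants they summed to 2874 FPKM in seeds and 3131 FPKM in seedlings. The class I gene_79900, for example, stood at 232 FPKM in NT seeds and 465 FPKM in DS10:A9 seeds, or 1.00 (0.93 to 1.10) as log2 fold beside 7.14 in seedlings. The mitochondrial gene_25232 was the other way in level, at 139.9 FPKM in NT seeds and 1133 FPKM in DS10:A9 seeds, far above the 148 FPKM of 35S:A9 seedlings. No other sHSP gene held as much of the DS10:A9 seed sum. The class I gene_26623 was also higher in DS10:A9 seeds (376 FPKM) than in 35S:A9 seedlings (88.4 FPKM). So was the mitochondrial gene_81743, at 47.4 and 20.4 FPKM. The remaining sHSP genes were higher in 35S:A9 seedlings than in DS10:A9 seeds. The BAG6 gene_70529 gave a like picture to gene_79900, at 184 and 352 FPKM in seeds, a log2 fold of 0.94 (0.90 to 0.98).

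All 9 phenylpropanoid genes at 5 FPKM or more in both tissues likewise had seedling intervals above their seed intervals, and 6 of the 9 stood under 5 FPKM in NT seedlings, against 91 of the 175. Chalcone synthase gene_77491 stood at 10.98 FPKM in NT seeds and 28.5 FPKM in DS10:A9 seeds, against 0.85 and 20.8 FPKM in seedlings, and its seed log2 fold of 1.38 (1.12 to 1.66) was below the 4.61 of seedlings. In 4 genes the seed interval lay wholly above the seedling interval. They were a PLAT domain protein (gene_87034), proteinase inhibitor II (gene_27772), a gene described as glutathione S-transferase in its seed row (gene_68297) and an uncharacterised protein (gene_12704). Further genes had a larger fold in seeds with overlapping intervals, for example histone H3.2 (gene_63552), with log2 folds of 1.42 in seeds and 1.01 in seedlings. The glutathione S-transferase stood at 0.59 and 5.26 FPKM in seeds, a log2 fold of 3.16 (2.14 to 4.31), and at 12.3 and 19.8 FPKM in seedlings, a log2 fold of 0.69 (0.44 to 0.93). For the 6 ubiquitin, proteasome and autophagy genes and the 3 photoreceptor genes in this comparison, the intervals of both tissues overlapped. Of 6 histone genes, only H2B.6 (gene_6783) had its seedling interval above that of seeds.

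**Figure D5:**
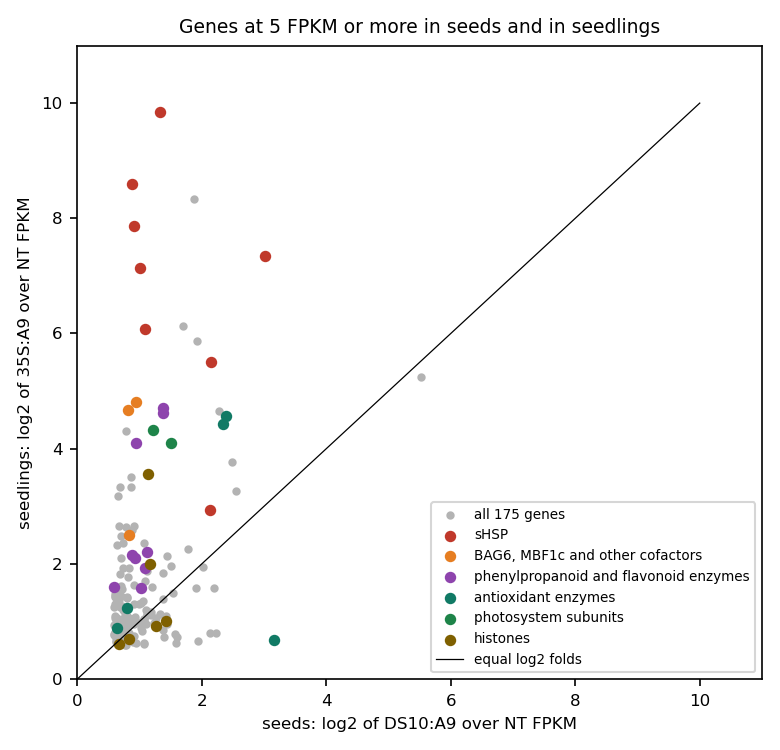
Log2 of DS10:A9 over NT FPKM in seeds (x axis) against log2 of 35S:A9 over NT FPKM in seedlings (y axis) for the 175 genes at 5 FPKM or more in both tissues, with 1 point per gene and the line of equal folds. The sHSP genes lie between 2.93 and 9.84 in seedlings and at 3.02 or less in seeds.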

How the data were processed

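RNA from 4 pooled libraries was compared, and the results above rest on the 35S:A9 and NT seedling libraries. In the submitters' processing notes HISAT 0.1.6, StringTie 1.04, Bowtie2 2.2.5 and RSEM 1.2.12 are named. The authors deposited FPKM per gene and library, with 0 written as 0.01, in a table of 9508 rows that holds each gene in a seed and a seedling row. The authors' columns of log2 fold and p-value were not used, and 4 other deposited tables were not used here. According to the study's methods, transcripts assembled on a tobacco genome with HISAT were added to the known ones, and reads mapped to that joint reference with Bowtie2 were quantified with RSEM, so a gene model can be a fragment of a gene. The genome cited there is the Ntab-BX assembly, and no coordinates are used here.

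Each log2 fold is that of the 2 deposited FPKM values, with no pseudocount, and none was given for a gene at 0 in NT. Depths were found from the FPKM steps of transcripts up to 500 bases, fragments were recovered with them, and intervals were computed with SciPy 1.17.1 (Python 3.11.15, NumPy 2.4.6, matplotlib 3.10.9). On simulated data of the 35S:A9 against NT seedling comparison, fragments were recovered for 100% of 361 genes within 1 fragment or 2%, and 96.4% of 360 intervals covered the simulated fold. With 1 library per side no test was run.

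Genes were assigned to 39 lists by words in either row's description, with the first database hit used where there were several. The members and lists were chosen with earlier results of these data known. Named genes were those with a described product and the 20 largest log2 folds or an NT value of 0, the 15 highest 35S:A9 levels, the 4 highest levels and 2 largest folds of each list, the genes of the study's example table, and the genes next to the minimum. The following were named after their values were seen: gene_819, gene_4730, gene_6382, gene_10539, gene_12704, gene_23289, gene_27417, gene_27987, gene_29551, gene_31414, gene_35925, gene_39794, gene_60359, gene_65447, gene_68297, gene_71101, gene_80527, gene_81659, gene_16937, gene_61634, gene_63504 and gene_46117. Most were further members of a described family or pathway, while others, such as gene_12704, gene_16937 and gene_61634, had no described product. Alternatives were other minimums, folds, pseudocounts, genes with identical length and values counted once, unscaled fragments, the lower bound of the counting interval in place of the fold, and the description of the 35S row alone. The counts of each list by NT level were added after seeing the data.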

Additional observations from a re-analysis of the deposited data

How the results depend on the processing

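The count of 133 genes with a log2 fold of 2 or more (19.1% of 695) became 394 (18.8% of 2091) with a minimum of 1 FPKM, 87 (22.1% of 393) with a minimum of 10 FPKM, 738 (20.9% of 3538) with no minimum and 26 (8.25% of 315) where the lower FPKM had to reach 5. It was 90 (12.9%) where the lower bound of the counting interval had to reach 2. It was 418 at a log2 fold of 1 and 69 at a log2 fold of 3. A pseudocount of 1 gave 99 and one of 0.1 gave 135. The number of well-measured genes, 700, became 2203 and 395 with minimums of 1 and 10 FPKM. The median log2 fold of 1.15 became 1.02 with a pseudocount of 1, 1.24 with no minimum and 0.95 where the lower FPKM had to reach 5. With the 35S row's description alone, 36 of 39 lists stayed within 1.5 times their size, while DnaJ cochaperones went from 4 to 1, plastid proteases from 4 to 2 and genes described as chloroplastic from 84 to 53. No paired analysis was possible because each side is 1 pooled library. Depth limits genes with few NT fragments most, and 46 genes had 10 or fewer.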

Other observations

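Of the 5 genes listed at 0 in NT seedlings, 3 are not described above. A pentatricopeptide repeat protein (gene_78852), of a family that acts on organelle RNA, stood at 5.22 FPKM in 35S:A9 seedlings. The undescribed gene_1980 stood at 10.1 FPKM. The third, gene_2578, stood at 5.11 FPKM in 35S:A9 seedlings, but at 102 FPKM in NT seeds and 159 FPKM in DS10:A9 seeds. A centrosome and spindle pole-associated protein (gene_31355) rested on 2 fragments in NT, at 0.15 and 12.5 FPKM, a log2 fold of 6.38 (counting interval 4.49 to 9.42).

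A total of 144 genes with a fold had no described product. Their median log2 fold was 1.01, and 22 (15.3%) reached a log2 fold of 2, against 19.1% of all well-measured genes. The most abundant, gene_16937, stood at 129.5 FPKM in NT and 318 FPKM in 35S:A9 seedlings. Its description is also that of the seedling row of gene_16930, whose seed row names a chlorophyll a/b-binding protein. Only gene_16930 was counted in the light-harvesting list, so that list depends on the description each row was given. A further gene with no described product, gene_61634, stood at 0.23 and 15.1 FPKM, a log2 fold of 6.03 (4.84 to 7.43). The gene described as UP-9A (gene_46117) stood at 2.27 and 44.7 FPKM, a log2 fold of 4.30 (3.77 to 4.84), and in seeds at 7.87 and 13.5 FPKM.

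Of all genes in the table, 14.7% were well measured. Of 173 genes of retrotransposon-derived proteins, 6 (3.47%) were, with log2 folds between 0.66 and 1.23. Of 81 pentatricopeptide repeat genes, 5 (6.17%) were, and of 25 genes of ribosomal proteins and translation, 5 (20%) were. None of these well-measured genes with a fold reached a log2 fold of 2, against 19.1% of all.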
